A study of Mus musculus with 6 samples.

Results

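The genes that carry pyruvate into the tricarboxylic acid (TCA) cycle and run the cycle were examined in tumor-associated macrophages (TAMs) from mice with and without a myeloid deletion of Pdcd1, the gene of the inhibitory receptor PD-1. The set holds 35 genes of the 55421 in the count table, and its members were chosen by symbol and function. They are the pyruvate dehydrogenase complex, its phosphatases and kinases, the mitochondrial pyruvate carrier, the mitochondrial and cytosolic enzymes of the cycle, citrate export, and Acod1, which makes itaconate. Of these, 34 had 10 or more counts in at least 3 libraries and were tested among 14469 genes, and Pdk4 was not. RNA-seq was made of CD11b+F4/80+ TAMs collected 15 days after implantation of M17 tumors, a fibrosarcoma line named MC17-51 in the study. There were 3 libraries from Pdcd1f/f mice, which carry the conditional Pdcd1 allele without Cre, and 3 from Pdcd1f/fLysMCre mice, which carry the same allele and Cre recombinase driven by the lysozyme M (LysM) promoter. Both genotypes bore the tumor, and the mice of the study were 8 to 12 weeks old. The LysM promoter is active in macrophages, monocytes and neutrophils, so Cre is not limited to TAMs. The study reports using as many male as female mice in its experiments. The labels do not say how many mice went into each library, so p-values measure the spread between these libraries only. Every library held both Xist and Y-linked counts, given below, and the number of mice behind them was not tested.

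Pyruvate made by glycolysis enters mitochondria through the carrier of Mpc1 and Mpc2, and the pyruvate dehydrogenase complex turns it into acetyl-CoA. Pyruvate dehydrogenase kinases (Pdk1 to Pdk4) switch the complex off by phosphorylating its E1 alpha subunit, and the phosphatases Pdp1 and Pdp2 switch it on again. Acetyl-CoA joins oxaloacetate to form citrate, which is oxidized in the cycle, exported for lipid synthesis or, in activated macrophages, diverted through cis-aconitate to itaconate. RNA levels say nothing of phosphorylation or flux, which were not measured here.

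Libraries held 41833823 to 51417209 counts. Lyz2, the gene that carries Cre in this strain, was at 207974 to 225226 normalized counts in Pdcd1f/f TAMs and at 405 to 465 in Pdcd1f/fLysMCre TAMs, so the labels and the counts matched. Cre and the low Lyz2 level went with the genotype, so they and the deletion of Pdcd1 cannot be told apart. Pdcd1 itself had 10, 12 and 15 counts in Pdcd1f/f libraries and 7, 16 and 11 in Pdcd1f/fLysMCre libraries, so at this depth its deletion could not be read from gene counts. The 6 macrophage markers summed to 331124 to 338389 normalized counts in Pdcd1f/f TAMs and to 279253 to 289116 in Pdcd1f/fLysMCre TAMs, with Adgre1, Csf1r and Mrc1 lower past the threshold. Itgam, Cd68 and Ptprc overlapped, with log2 fold changes of -0.16, -0.06 and 0.11. Neutrophil markers summed to 4224 to 4552 and 3821 to 3952 normalized counts, with Ly6g at 2.95 or less in every library and 1 of 10 markers, Csf3r, lower past the threshold, and the other 9 summed to 1740 to 2250 and 2153 to 2314, which overlapped. Dendritic cell markers summed to 221 to 300 and 284 to 359 normalized counts, with none past the threshold. All 3 tested had a fold change above 0, with log2 values of 0.67 for Flt3, 0.69 for Zbtb46 and 0.03 for Ccr7. Flt3 did not overlap (edgeR adjusted p = 0.137) and Zbtb46 did (0.12). They passed in 1 and 3 of the 17 alternative fits given below. T and NK cell markers summed to 621 to 694 and 552 to 669, with none past the threshold. B cell markers summed to 169 to 209 and 120 to 149, with none past it either. Cd79b had a log2 fold change of -0.52 with no overlap (edgeR adjusted p = 0.067) and passed in 5 of 17 alternatives. Fibroblast and fibrosarcoma markers summed to 3083 to 3330 and 2943 to 3238. Of 6 tested, 2 had a fold change above 0 and 4 below, with Col1a2 lower past the threshold. Lum, which did not pass the filter, was at 0 to 4.47 and 7.87 to 16.2, with no overlap. Endothelial markers summed to 1868 to 1988 and 1519 to 1647, with Pecam1 lower past the threshold (means 1082 and 702). Cdh5 (169 and 168) and Kdr (691 and 698) overlapped. Erythroid markers summed to 2 to 18 and 0 to 9. In bulk RNA, fewer cells of a type and less RNA per cell cannot be told apart, and the part of these cells in the members' levels was not tested. Xist was at 17318 to 26511 normalized counts in Pdcd1f/f and at 8530 to 13137 in Pdcd1f/fLysMCre libraries, and 4 Y-linked genes summed to 1545 to 1914 and 6267 to 7233, so the mix of sexes and the genotype cannot be told apart, which touches the X-linked members Pdha1, Pdk3 and Idh3g. Pdcd1f/f replicate 1 and Pdcd1f/fLysMCre replicate 2 stood apart from the other libraries, because their deviations from the genotype mean ran against the GC content of genes (Spearman's rho across 14454 genes of -0.579 and -0.49, against 0.117 to 0.511 in the other 4). Calls without them are given below, and so are the values of Cs, Suclg1 and members with an absolute log2 fold change over 0.1 that moved by over 1.5 times without 1 or both.

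None of the 34 members passed an adjusted p of 0.05 in edgeR's quasi-likelihood test with TMM scaling and a filter on low counts, whereas 5.43% of all genes tested did. The members' differences were small, with a largest absolute log2 fold change of 0.35, a median absolute value of 0.11 (0.16 over all genes tested) and 16 of the 34 under 0.1. At an unadjusted p under 0.05 there were 13 members, or 38.2%, against 24.2% of all genes. DESeq2 called 5 members (Idh3a, Me2, Pdha1 and Pdp1 higher, Slc25a1 lower, 12.6% of all genes called), and limma called 0 (4.57% of all genes). The fold change was above 0 for 21 members and below 0 for 13, with a median of 0.07 on the log2 scale against -0.003 over all genes tested.

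The 3 Pdcd1f/fLysMCre libraries all lay above the 3 Pdcd1f/f libraries for 13 members, or 38.2% of those tested, where 14.1% of all genes did so. They all lay below for 5 members, or 14.7%, where 13.1% of all genes did so. For each of these 18 members a two-sided exact permutation test of the mean normalized count gave 0.1, which is the smallest p that 3 against 3 libraries allow.

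The number of members called differed between fits, and the cause was not tested. Without a filter on low counts it was 4 (7.32% of all genes called). Without Pdcd1f/f replicate 1, edgeR called 9 members (21.6% of all genes called), of which Dld, Idh3a, Me2, Pdha1, Pdp1 and Sucla2 were higher and Idh2, Pdk2 and Slc25a1 lower. Without both libraries that stood apart, the same 9 and Acod1 were called (26.2% of all genes called). With GC and length offsets fitted per library, 10 members were called (18.9% of all genes called), namely Acly, Acod1, Dlat, Dld, Idh3a, Me2, Pdha1, Pdp1 and Sucla2 higher and Idh1 lower. Leaving out any of the other 5 libraries gave 0 members. Of all genes, 1.51% were called without Pdcd1f/f replicate 2 and 2.38% without its replicate 3, and 1.51%, 2.5% and 3.56% without Pdcd1f/fLysMCre replicates 1, 2 and 3.

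**Figure D1:**
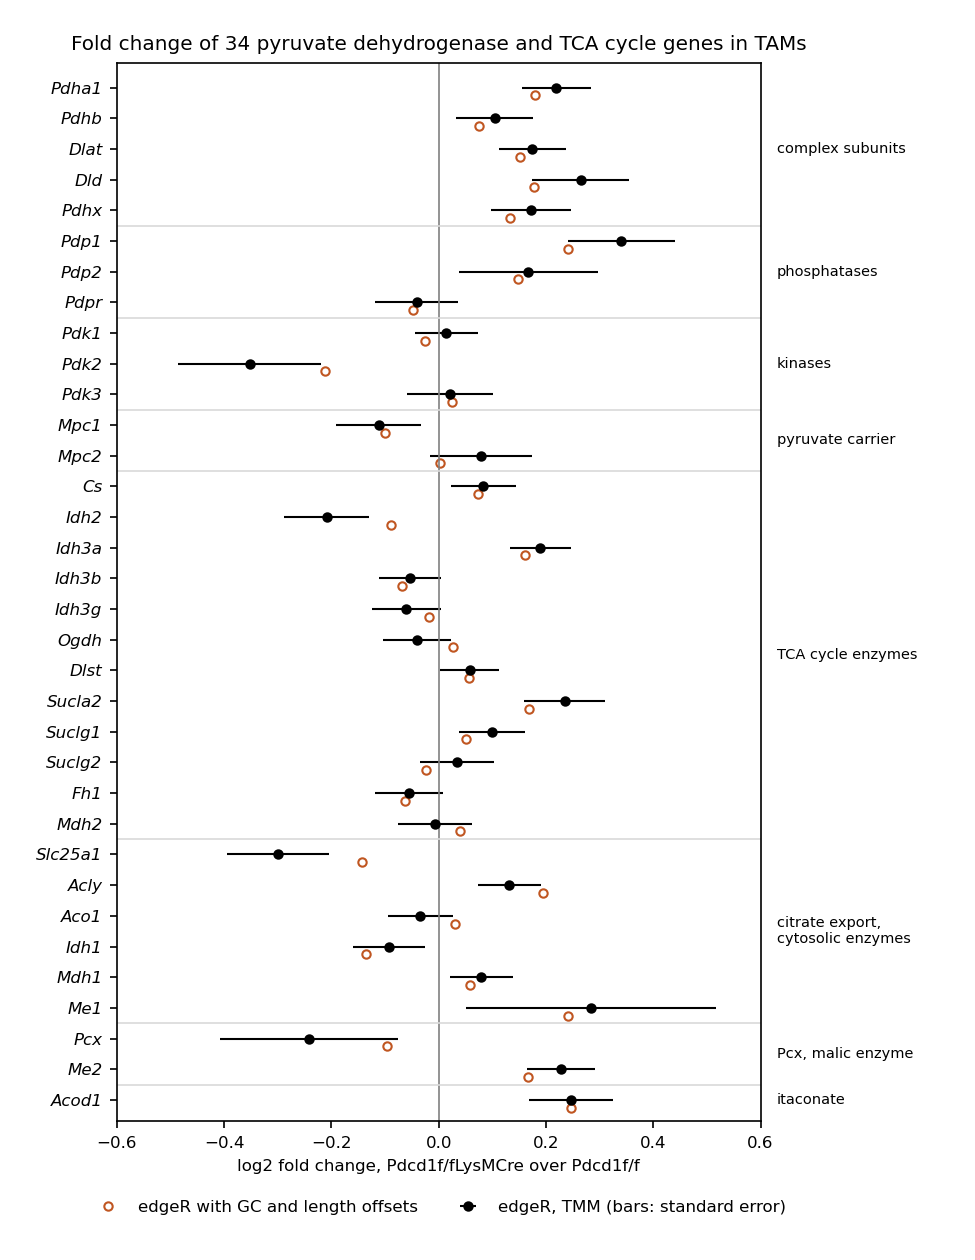
Log2 fold change of the 34 members tested, Pdcd1f/fLysMCre over Pdcd1f/f TAMs (n = 3 libraries each), ordered by role. Black points show edgeR with TMM scaling and bars its standard error, and open points show the fit with GC and length offsets, which lies closer to 0 for Pdk2, Idh2, Slc25a1 and Pcx.

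**Figure D2:**
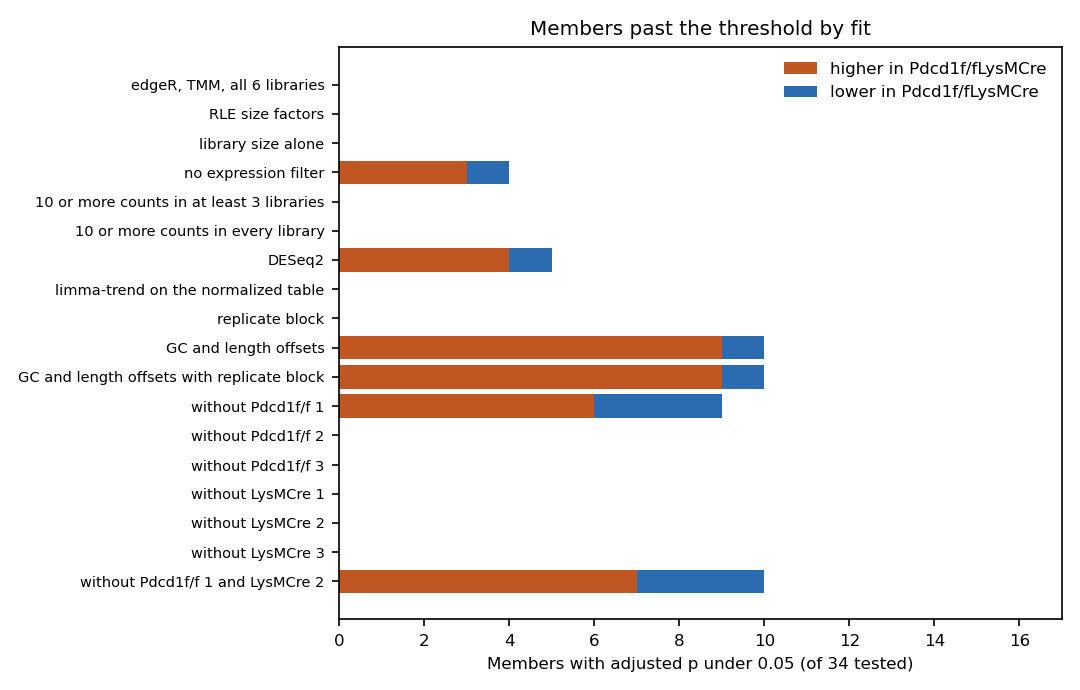
Number of members with an adjusted p under 0.05 in each fit, split by direction. The count is 0 in edgeR with TMM scaling and the filter on low counts over all 6 libraries (5.43% of all genes called), 4 without that filter (7.32%) and 5 in DESeq2 (12.6%). It reaches 10 with GC and length offsets (18.9%) or without Pdcd1f/f replicate 1 and Pdcd1f/fLysMCre replicate 2 (26.2%).

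All 5 subunit genes of the pyruvate dehydrogenase complex had a fold change above 0, none past the threshold with TMM scaling and the filter, with a median of 0.17 on the log2 scale. Pdha1 encodes the E1 alpha subunit that the kinases phosphorylate and lies on chromosome X from 160122209 to 160138413 (GRCm38, minus strand). It was at 9207, 8574 and 8678 normalized counts in Pdcd1f/f TAMs and at 9749, 10876 and 10132 in Pdcd1f/fLysMCre TAMs, with no overlap between genotypes. Its log2 fold change was 0.22 (SE 0.064, adjusted p = 0.0741), or 16.4% higher with a 95% interval of 5.43% to 28.5%. Its adjusted p was 0.00564 with GC and length offsets, and ranged from 0.00511 to 0.292 over 17 alternatives. An antisense gene, Map3k15, shares 603 bases, or 16.1%, of its exons, and whether reads were counted by strand is not given in the sources used here. The reference sequence around its start, shown because Pdha1 is the regulated subunit, runs from 250 bases before to 50 bases after the transcription start (RefSeq, GRCm38.p6, chrX:160138381-160138680, minus strand, printed 5′ to 3′) and held none of the motifs searched below.
Pdha1: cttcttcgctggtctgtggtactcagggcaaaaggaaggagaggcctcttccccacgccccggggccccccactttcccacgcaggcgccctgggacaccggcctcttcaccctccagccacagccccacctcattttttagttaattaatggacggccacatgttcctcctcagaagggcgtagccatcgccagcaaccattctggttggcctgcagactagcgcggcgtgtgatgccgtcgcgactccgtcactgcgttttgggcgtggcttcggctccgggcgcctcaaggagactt

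Dlat, the E2 acetyltransferase, was at 4281, 4447 and 4144 normalized counts in Pdcd1f/f TAMs and at 4694, 4995 and 4818 in Pdcd1f/fLysMCre TAMs. This gene's log2 fold change was 0.17 (SE 0.062, adjusted p = 0.123, and 0.0232 with GC and length offsets). Pdhx, which anchors E3 to the complex, was at 1252, 1276 and 1389 against 1426, 1539 and 1439 normalized counts, with a log2 fold change of 0.17 (SE 0.075, adjusted p = 0.191), and of 0.10 without both libraries that stood apart. For both genes the genotypes did not overlap. Dld, the E3 dehydrogenase shared with other keto acid dehydrogenases, was at 9789, 8377 and 8384 against 10218, 11924 and 9714 normalized counts, so Pdcd1f/f replicate 1 was higher than Pdcd1f/fLysMCre replicate 3. Its log2 fold change of 0.26 (SE 0.090) had an adjusted p of 0.111. It was 0.33 without Pdcd1f/f replicate 1 (adjusted p = 0.0118), 0.17 without Pdcd1f/fLysMCre replicate 2, its highest library (adjusted p = 0.323), 0.25 without both (adjusted p = 0.00131) and 0.18 with GC and length offsets (adjusted p = 0.00707). Pdhb, the E1 beta subunit, was at 6147 ± 411 and 6599 ± 394 normalized counts (mean ± SD, n = 3), which overlapped (log2 fold change 0.10, adjusted p = 0.406, and 0.05 without Pdcd1f/fLysMCre replicate 2 or without Pdcd1f/f replicate 3).

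Pdp1 encodes the main catalytic phosphatase that reactivates pyruvate dehydrogenase and lies on chromosome 4 from 11958184 to 11966452 (GRCm38, minus strand). It was at 687, 560 and 587 normalized counts in Pdcd1f/f TAMs and at 724, 811 and 786 in Pdcd1f/fLysMCre TAMs. The genotypes did not overlap, with a gap between Pdcd1f/f replicate 1 and Pdcd1f/fLysMCre replicate 1 that was small beside the spread within each group. Pdp1 had the highest fold change of the members, 0.34 on the log2 scale (SE 0.10, adjusted p = 0.0732), or 26.6% higher with a 95% interval of 8.62% to 47.6%. It passed the threshold in 6 of 17 alternatives, with adjusted p-values of 0.0359 in DESeq2, 0.0329 with GC and length offsets, 0.00881 without Pdcd1f/f replicate 1 and 0.00375 without both libraries that stood apart, and up to 0.299 with another library left out. Pdp1 also had the lowest GC content of the members, 39.2%. Pdp2, the other catalytic phosphatase, was at 292, 278 and 245 against 293, 350 and 272 normalized counts, which overlapped (log2 fold change 0.17, SE 0.13, adjusted p = 0.458, 0.06 without Pdcd1f/fLysMCre replicate 2 and 0.11 without both libraries that stood apart). Pdpr, the regulatory subunit that lowers phosphatase activity, was at 1169, 1130 and 1126 against 1139, 1028 and 1157 normalized counts, which overlapped as well (log2 fold change -0.04, SE 0.077, adjusted p = 0.784).

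The kinases that oppose Pdp1 had fold changes of both signs, none past the threshold. Pdk1, an isoform induced by hypoxia, was at 5569, 5762 and 5799 normalized counts in Pdcd1f/f TAMs and at 5674, 5965 and 5635 in Pdcd1f/fLysMCre TAMs (log2 fold change 0.01, SE 0.059, adjusted p = 0.907). Its interval ran from -7.79% to 10.6%. X-linked Pdk3 was at 1989, 1799 and 1758 against 1833, 2025 and 1766 normalized counts (log2 fold change 0.02, SE 0.080, adjusted p = 0.895). Both genes overlapped between genotypes, and the sign of their fold change turned in some fits. Pdk2, on chromosome 11 from 95026258 to 95041354 (minus strand), was at 262, 350 and 320 normalized counts in Pdcd1f/f TAMs and at 244, 225 and 258 in Pdcd1f/fLysMCre TAMs, which did not overlap. It differed by -21.7%, with a log2 fold change of -0.35 (SE 0.13, adjusted p = 0.143), the lowest of the members. Its adjusted p was 0.189 with GC and length offsets, with a log2 fold change of -0.21, and 0.0204 without Pdcd1f/f replicate 1. Pdk4, which fasting and fatty acids induce in muscle and liver, was at 0.927, 4.47 and 1.1 normalized counts in Pdcd1f/f TAMs and at 0, 0 and 0.983 in Pdcd1f/fLysMCre TAMs, and did not pass the filter.

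On a scale that allows genes to be compared, library-scaled counts per kilobase of exon, Pdk1 (15.1 to 16.3 over the 6 libraries) and Pdk3 (14.5 to 16.8) had levels that overlapped, and together they made up nearly the whole kinase RNA. Pdk1 was 47.2% ± 1.63 of the kinase sum in Pdcd1f/f and 47.8% ± 0.679 in Pdcd1f/fLysMCre TAMs (SD, n = 3). Pdk3 was 49.3%, 45.2% and 44.8% of it in Pdcd1f/f and 47.0%, 48.6% and 46.1% in Pdcd1f/fLysMCre TAMs. Pdk2 made up 6.32% ± 0.962 and 4.96% ± 0.55 (SD, n = 3). Of the catalytic phosphatases, Pdp1 made up 73.9% ± 1.86 of the sum in Pdcd1f/f and 76.3% ± 2.0 in Pdcd1f/fLysMCre TAMs. The kinase sum divided by the sum of Pdp1 and Pdp2 was 7.73, 8.98 and 8.85 in Pdcd1f/f TAMs and 7.17, 6.74 and 6.73 in Pdcd1f/fLysMCre TAMs. These ratios did not overlap (exact permutation p = 0.1, two-sided, the smallest possible), and the value nearest to the other genotype came from Pdcd1f/f replicate 1. The kinase sums were 32.9 ± 0.473 and 32.9 ± 1.47 (exact permutation p = 0.9, n = 3), while the phosphatase sums were 3.88 ± 0.366 and 4.78 ± 0.314 (exact permutation p = 0.1, n = 3).

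**Figure D3:**
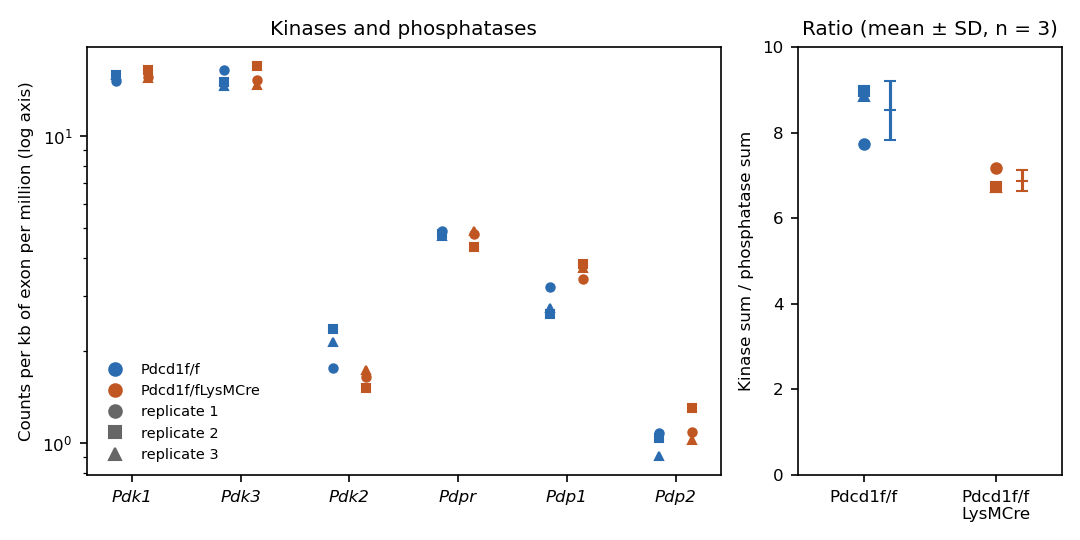
Left, levels of pyruvate dehydrogenase kinases and phosphatases in library-scaled counts per kilobase of exon, on a log axis, 1 point per library, while Pdk4 is near 0 and not drawn. Right, the summed kinase level over the summed Pdp1 and Pdp2 level, 6.73 to 7.17 in Pdcd1f/fLysMCre and 7.73 to 8.98 in Pdcd1f/f TAMs.

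The upstream sequence of Pdk2 is shown as that of the member with the lowest fold change. In the window at its outer RefSeq start (GRCm38.p6, chr11:95041322-95041621, minus strand, printed 5′ to 3′), capitals mark 3 CCAAT boxes, 42, 73 and 105 bases before the start, and CACGTG, which reads as the hypoxia response core ACGTG on both strands.
Pdk2: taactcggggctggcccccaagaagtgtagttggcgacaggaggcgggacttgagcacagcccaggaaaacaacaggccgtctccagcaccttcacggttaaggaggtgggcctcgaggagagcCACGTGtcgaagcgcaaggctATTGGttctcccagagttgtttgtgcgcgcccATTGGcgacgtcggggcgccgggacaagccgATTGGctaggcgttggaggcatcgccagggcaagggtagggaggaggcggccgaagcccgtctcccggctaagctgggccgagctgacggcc

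The carrier that brings pyruvate into mitochondria showed no difference past the threshold. Mpc1 was at 937, 1007 and 936 normalized counts in Pdcd1f/f TAMs and at 914, 850 and 897 in Pdcd1f/fLysMCre TAMs, which did not overlap (log2 fold change -0.11, SE 0.079, adjusted p = 0.412). The antisense gene 4930506C21Rik shares 480 bases, or 23.1%, of its exons, and a pseudogene, Mpc1-ps, lies on chromosome 12, so its count is uncertain. Its partner Mpc2 was at 1886 ± 233 and 1990 ± 121 normalized counts (mean ± SD, n = 3), which overlapped (adjusted p = 0.645).

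Of the 12 mitochondrial enzymes of the cycle, 6 had a fold change above 0 and 6 below, with a median of 0.01 on the log2 scale and none past the threshold. Their summed level was 88930 to 93510 normalized counts in Pdcd1f/f and 91529 to 94214 in Pdcd1f/fLysMCre TAMs, which overlapped. Cs, citrate synthase, was at 12931, 14006 and 13949 against 14465, 14089 and 14689 normalized counts (log2 fold change 0.08, SE 0.061, adjusted p = 0.430, and 0.04 without Pdcd1f/f replicate 1). Idh3a, the catalytic subunit of NAD-dependent isocitrate dehydrogenase, was at 7260, 7177 and 7137 against 7984, 8479 and 8106 normalized counts. The Pdcd1f/fLysMCre values were apart from the tightly grouped Pdcd1f/f values, with a log2 fold change of 0.19 (SE 0.057, adjusted p = 0.0799, 0.0328 in DESeq2 and 0.00955 with GC and length offsets). Of its partner subunits, Idh3b was at 6469, 6633 and 6555 against 6273, 6206 and 6435 normalized counts (log2 fold change -0.05, SE 0.057, adjusted p = 0.600), with the Pdcd1f/fLysMCre libraries all below, and X-linked Idh3g at 5393 ± 212 and 5164 ± 231 (mean ± SD, adjusted p = 0.601). Idh2, the NADP-dependent enzyme, was at 6268, 7069 and 7501 normalized counts in Pdcd1f/f TAMs and at 6166, 5592 and 6238 in Pdcd1f/fLysMCre TAMs. It did not overlap, but Pdcd1f/f replicate 1 lay just above the Pdcd1f/fLysMCre libraries. The fitted log2 fold change of -0.21 (SE 0.079, adjusted p = 0.143) was -0.09 with GC and length offsets (adjusted p = 0.143), and its adjusted p was 0.0123 without Pdcd1f/f replicate 1.

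Of the later steps, Sucla2 had the largest fold change. This ATP-specific beta subunit of succinyl-CoA synthetase was at 4078, 3906 and 3908 normalized counts in Pdcd1f/f TAMs and at 4262, 5151 and 4560 in Pdcd1f/fLysMCre TAMs. Its log2 fold change was 0.23 (SE 0.076, adjusted p = 0.0977, 0.0309 with GC and length offsets), and Pdcd1f/fLysMCre replicate 2 was the highest library. Without that library it was 0.16 (adjusted p = 0.277), and without Pdcd1f/f replicate 1 it was 0.25 (adjusted p = 0.0400). The shared alpha subunit Suclg1 was at 3331, 3505 and 3581 against 3639, 3734 and 3772 normalized counts (log2 fold change 0.10, SE 0.062, adjusted p = 0.351, 0.06 without Pdcd1f/f replicate 1 and 0.05 with GC and length offsets), and the GTP-specific beta subunit Suclg2 at 1719 ± 69.5 and 1757 ± 53.9 (adjusted p = 0.806). Dlst, the E2 subunit of alpha-ketoglutarate dehydrogenase, was at 12409, 12299 and 12175 against 12948, 12692 and 12695 normalized counts, which did not overlap but differed by 4.09% (SE 0.055 on the log2 scale, adjusted p = 0.555). Its E1 subunit Ogdh was at 11387 ± 496 and 11052 ± 466 normalized counts (adjusted p = 0.727). Fumarase, Fh1, was at 4457 ± 151 and 4285 ± 190 normalized counts (adjusted p = 0.632), and mitochondrial malate dehydrogenase, Mdh2, at 14784 ± 836 and 14684 ± 814 (adjusted p = 0.957). These 3 genes and Suclg2 overlapped between genotypes, and all SDs are over 3 libraries.

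**Figure D4:**
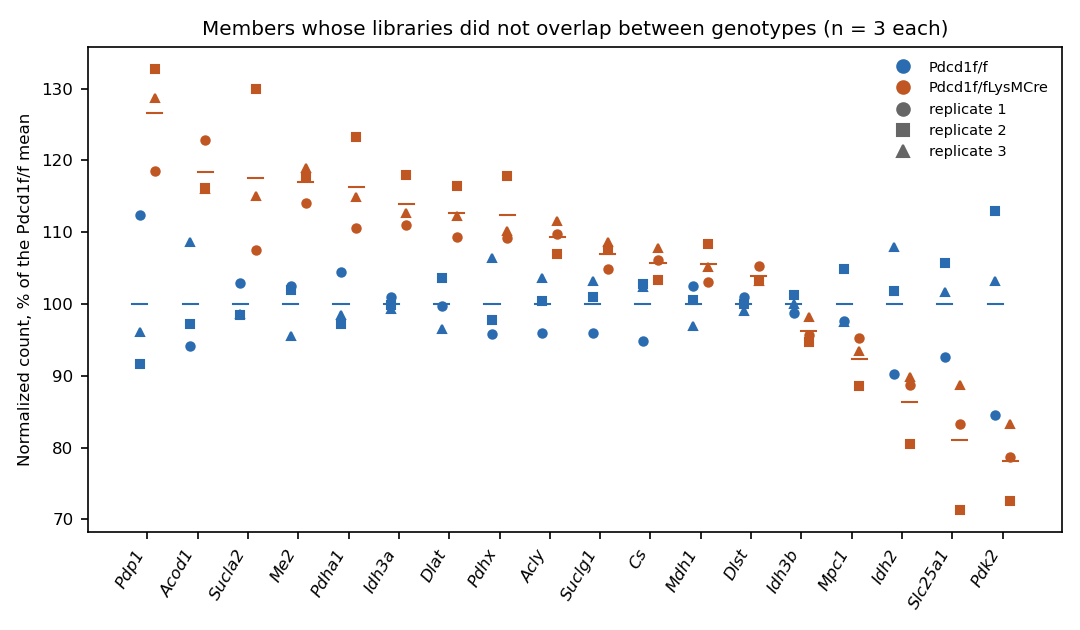
Normalized counts of the 18 members whose libraries did not overlap between genotypes, as percent of the mean of the 3 Pdcd1f/f libraries. Lines mark group means. Pdp1 and Acod1 stand at the upper end and Pdk2 and Slc25a1 at the lower end, and circles of Pdcd1f/f replicate 1 lie toward the other genotype for Pdp1, Idh2, Slc25a1 and Pdk2.

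Of 6 citrate export and cytosolic genes, 3 had a fold change above 0 and 3 below, none past the threshold with TMM scaling. Slc25a1, the mitochondrial citrate carrier, on chromosome 16 from 17925223 to 17928219 (minus strand), was at 1348, 1538 and 1479 normalized counts in Pdcd1f/f TAMs and at 1212, 1037 and 1291 in Pdcd1f/fLysMCre TAMs, with no overlap. It differed by -18.8% (log2 fold change -0.30, SE 0.096, adjusted p = 0.0918, 0.0425 in DESeq2), and had the highest GC content of the members, 59.1%. With GC and length offsets its log2 fold change was -0.14 (adjusted p = 0.114), and it was -0.36 without Pdcd1f/f replicate 1 (adjusted p = 0.0192) and -0.21 without Pdcd1f/fLysMCre replicate 2 (adjusted p = 0.257). Acly, which splits exported citrate into acetyl-CoA and oxaloacetate, was at 11657, 12211 and 12593 against 13335, 13004 and 13551 normalized counts. The log2 fold change of this gene was 0.13 (SE 0.059, adjusted p = 0.206) and, unlike that of the other high members except Acod1, larger with GC and length offsets, 0.19 (adjusted p = 0.00181). Cytosolic malate dehydrogenase, Mdh1, was at 9603, 9412 and 9082 against 9653, 10144 and 9851 normalized counts, a difference of 5.67% with no overlap (log2 fold change 0.08, SE 0.058, adjusted p = 0.429). Aco1, the cytosolic aconitase, was at 3803 ± 123 and 3708 ± 66.2 normalized counts (adjusted p = 0.768). Idh1, the cytosolic NADP-dependent isocitrate dehydrogenase, was at 3797 ± 137 and 3557 ± 204 (adjusted p = 0.425, 0.0364 with GC and length offsets). Cytosolic malic enzyme, Me1, was near the floor of the members at 39.6 ± 3.75 and 48.1 ± 7.05 normalized counts (adjusted p = 0.486, SDs over 3 libraries), and these 3 genes overlapped.

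The upstream sequence of Slc25a1 is shown beside that of Pdk2 as that of another low member (GRCm38.p6, chr16:17928170-17928469, minus strand, printed 5′ to 3′). Capitals mark 4 GC boxes, 11, 37, 79 and 106 bases before the start, a CCAAT box 125 bases before and 1 placed 36 bases after it, and the hypoxia response core near the 5′ end of the window and 8 bases after the start.
Slc25a1: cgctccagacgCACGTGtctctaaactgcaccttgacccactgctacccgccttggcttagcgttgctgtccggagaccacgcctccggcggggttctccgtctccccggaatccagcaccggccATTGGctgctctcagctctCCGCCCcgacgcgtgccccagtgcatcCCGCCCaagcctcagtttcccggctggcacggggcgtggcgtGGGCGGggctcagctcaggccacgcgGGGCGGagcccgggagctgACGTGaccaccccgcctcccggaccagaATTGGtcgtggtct

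The 2 other enzymes that feed or drain the cycle at pyruvate had fold changes of opposite sign, neither past the threshold with TMM scaling. Me2, mitochondrial malic enzyme, had the lowest adjusted p of the members. It was at 2831, 2812 and 2637 normalized counts in Pdcd1f/f TAMs and at 3150, 3250 and 3284 in Pdcd1f/fLysMCre TAMs, with no overlap. Its log2 fold change was 0.23 (SE 0.064, adjusted p = 0.0660, 0.0223 in DESeq2 and 0.0263 with GC and length offsets). Pcx, pyruvate carboxylase, which makes oxaloacetate, was low and scattered at 252 ± 29.6 and 212 ± 44.0 normalized counts (mean ± SD, n = 3) and overlapped (log2 fold change -0.24, adjusted p = 0.400, and -0.10 without Pdcd1f/fLysMCre replicate 2 or -0.40 without replicate 3). With GC and length offsets the log2 fold change of Pcx was -0.10 (adjusted p = 0.637).

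Acod1 encodes the decarboxylase that makes itaconate from cis-aconitate and lies on chromosome 14 from 103046977 to 103056573 (GRCm38, plus strand). It was at 1184, 1222 and 1365 normalized counts in Pdcd1f/f TAMs and at 1545, 1461 and 1458 in Pdcd1f/fLysMCre TAMs, with no overlap. The fitted log2 fold change was 0.25 (SE 0.078, adjusted p = 0.0910), or 18.6% higher with a 95% interval of 5.18% to 33.7%. The fold change was 0.25 with GC and length offsets too, with an adjusted p of 0.0168, and it was not called by DESeq2 (adjusted p = 0.0564) or without Pdcd1f/f replicate 1 (adjusted p = 0.1). Neutrophils also express Acod1. The study's methods describe a sort of TAMs, from mice of another genotype, that left out cells with the neutrophil protein Ly6G, and Ly6g was at 2.95 or less normalized counts in every library. The 9 neutrophil markers other than Csf3r summed to 2250, 1894 and 1740 normalized counts in Pdcd1f/f TAMs and to 2168, 2314 and 2153 in Pdcd1f/fLysMCre TAMs, which overlapped. Most of this came from S100a8, at 1253 ± 206 and 1472 ± 71.8 (mean ± SD, n = 3, 17.5% higher, adjusted p = 0.220), and S100a9, at 575 ± 32.4 and 626 ± 20.8 (9.0% higher, adjusted p = 0.412). Of the 5 neutrophil markers tested, 3 had a fold change above 0 and 2, Retnlg and Csf3r, below. Retnlg was at 42.2 ± 5.52 and 21.8 ± 8.39 with no overlap (48.1% lower, adjusted p = 0.11, 0.0449 with GC and length offsets). Csf3r was lower, at 2412 ± 96.8 and 1694 ± 163 (adjusted p = 0.00686), and the part of neutrophils in the Acod1 level was not tested.

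The upstream sequence of Acod1 (GRCm38.p6, chr14:103046762-103047061, plus strand, printed 5′ to 3′) is shown because it alone of the members' windows searched held a TATA box. Capitals mark that box, 28 bases before the start, a CCAAT box 107 bases before and the hypoxia response core 18 bases before it.
Acod1: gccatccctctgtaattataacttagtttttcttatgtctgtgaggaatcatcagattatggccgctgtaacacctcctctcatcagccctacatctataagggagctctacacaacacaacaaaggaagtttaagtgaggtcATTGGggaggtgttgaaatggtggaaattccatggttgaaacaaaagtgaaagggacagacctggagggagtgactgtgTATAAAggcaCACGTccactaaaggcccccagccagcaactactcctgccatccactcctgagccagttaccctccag

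RefSeq windows of 300 bases were used for 32 members, 43 windows in all, and 6 motifs were searched on both strands. No window was at hand for Pdp1 and Idh3a. Members' windows on chromosome 18, where Me2 lies, were left out, a step not applied to the set of all windows. The TATA box TATAAA was in 2.33% of the members' windows and 13.6% of all 32851 windows. CCAAT was in 65.1% against 37.4%, the GC box GGGCGG in 67.4% against 35.7%, and the hypoxia response core ACGTG in 41.9% against 19.6%. AAGGTCA, bound by estrogen-related receptors, was in 2.33% against 4.72%, and GCATGCGC, the core of the NRF1 site, in 4.65% against 2.71%. The 2 member windows with GCATGCGC were both of 1 gene, Ogdh, among 32 genes. ACGTG also lies within CACGTG, which other factors bind. Members' windows were richer in G and C than all windows, with medians of 62.0% and 52.7%, and held more CG pairs, with medians of 21 and 7. The part of this composition in the motif shares was not tested. The Acod1 window held 2 CG pairs, the lowest number among the members together with a window of Pdk1, and 47.0% G and C. Genes with ACGTG lay on both sides of 0, with Acod1, Acly and Mdh1 above and Pdk2, Slc25a1 and Pcx below. A match describes these letters only.

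Across the 34 members, the fold change ran against the GC content of their longest annotated transcript (Pearson's r = -0.792, Spearman's rho = -0.668, given as a description, since the members share the same libraries). Over all genes tested, rho was -0.364. The 4 members with a GC content above 55%, Idh2, Pdk2, Pcx and Slc25a1, all had a fold change below 0, and 11 of the 12 under 46% had one above 0. With GC and length offsets, rho over the members was -0.466. The median fold change was then 0.045 on the log2 scale, against 0.02 over all genes, and 0.15 for the subunits of the complex.

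**Figure D5:**
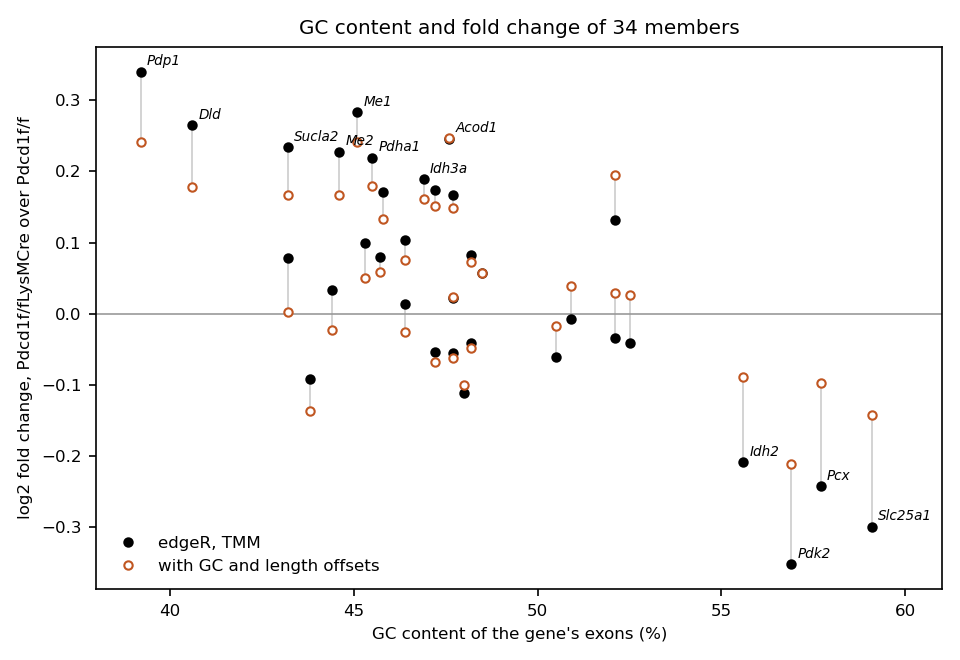
GC content of each member's longest annotated transcript, in percent, against its log2 fold change, Pdcd1f/fLysMCre over Pdcd1f/f TAMs. Values are without (black) and with (open) GC and length offsets. Vertical lines join both values of a gene. The 4 members above 55% GC lie below 0 in both fits, and Acod1 keeps its place.

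By level, in library-scaled counts per kilobase of exon averaged over the 6 libraries, the malate dehydrogenases came first, Mdh2 at 87.7 (82.0 to 91.7) and Mdh1 at 79.5 (74.7 to 83.8), with ranges that overlapped. Dld (56.0), Pdha1 (54.1), Idh2 (53.0), Cs (51.4) and Acly (51.1) followed, and their ranges overlapped as well. Their order differed by genotype, with Idh2 at a mean of 56.8 in Pdcd1f/f and 49.2 in Pdcd1f/fLysMCre TAMs, and Dld at 50.9 and 61.2. Ogdh (43.6), Idh3g (41.4), Idh3b (39.8), Pdhb (35.0) and Idh3a (32.1) came next, then Idh1 (28.1), Dlst (27.8), Fh1 (27.3), Sucla2 (22.9) and Dlat (19.8). Aco1 (17.7), Suclg1 (16.5), Pdk1 (15.6), Pdk3 (15.4), Slc25a1 (12.9) and Acod1 (11.1) were lower. The low end held Mpc1 (9.40), Me2 (8.75), Suclg2 (7.97), Pdhx (7.48), Mpc2 (5.59), Pdpr (4.74), Pdp1 (3.26), Pdk2 (1.85), Pdp2 (1.07), Pcx (1.03), Me1 (0.241) and Pdk4 (0.00753). Levels were divided by the length of all annotated exons of a gene, which may be longer than the transcript made in TAMs.

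Among 35 other genes around the cycle, 34 were tested and 2 passed the threshold, both lower, where 5.43% of all genes tested passed. Gpt2, the mitochondrial alanine transaminase that links pyruvate and glutamate to alanine and alpha-ketoglutarate, was at 2217, 2278 and 2276 normalized counts in Pdcd1f/f TAMs and at 1489, 1434 and 1462 in Pdcd1f/fLysMCre TAMs. The libraries of each genotype lay close together and far from the other, with a log2 fold change of -0.62 (SE 0.065, adjusted p = 5.23e-04), which passed in all 17 alternatives. Ucp2, an inner membrane carrier that can export 4-carbon intermediates of the cycle, was at 35441, 42978 and 45606 against 27773, 24246 and 29572 normalized counts. It fell by 0.60 on the log2 scale (SE 0.10, adjusted p = 0.00794) and passed in 15 of 17 alternatives. Its adjusted p was 0.0541 without Pdcd1f/f replicate 2 and 0.0582 without Pdcd1f/fLysMCre replicate 1.

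No other gene of these lists passed with TMM scaling and the filter, while 13 of the other 32 passed in at least 1 alternative and the sign of 10 turned with 1 library left out. The share of all genes passing in at least 1 alternative was not computed, and single alternatives called up to 26.2% of all genes. The 8 genes of succinate dehydrogenase and its assembly, which the cycle shares with the respiratory chain, had a median of -0.05 on the log2 scale and 0 past the threshold. Of the 3 lipoate genes, which make the cofactor of Dlat and Dlst, Lias had a log2 fold change of 0.21 (adjusted p = 0.125), which is also the median, and the signs of Lipt1 and Lipt2 turned with 1 library left out (-0.0076 to 0.1846 and -0.1112 to 0.4995). Of 8 pyruvate and lactate genes 7 had a fold change below 0, with a median of -0.06 and Gpt2 as the 1 past the threshold. The 7 genes of glutamine and aspartate entry had a median of 0.145, led by Glud1, glutamate dehydrogenase, at 21359, 20973 and 21331 against 23965, 25134 and 24035 normalized counts (log2 fold change 0.20, SE 0.056, adjusted p = 0.0655), with no overlap. Glud1 passed in 5 of 17 alternatives, with adjusted p-values of 0.0129 in DESeq2, 0.00136 with GC and length offsets and 0.0337 without Pdcd1f/f replicate 1, and of up to 0.269 in the others. Of the mitochondrial carriers of cycle intermediates, 3 were tested, all with a fold change below 0 and a median of -0.335 (-0.148 with GC and length offsets), and Slc25a21 had 0 counts. The 5 genes of acetyl-CoA from other sources had a median of -0.125 with 0 past the threshold. Among them, Acss1 was lower with no overlap (log2 fold change -0.36, adjusted p = 0.078). It passed in 5 of 17 alternatives, with adjusted p-values of 0.0459 in DESeq2 and 0.0434 with GC and length offsets, and of up to 0.23 in the others. The median over all 34 tested genes of these lists was -0.03.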

How the data were processed

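RNA of TAMs was sequenced as paired-end reads, with 3 libraries a genotype. Per the labels and processing notes, adapters were cut with cutadapt 2.5, reads aligned with STAR 2.7.3a to GRCm38 and assigned to Ensembl genes by featureCounts (Subread 1.6.2). The files deposited by the authors are these raw counts and a normalized signal table of 16552 genes, the counts divided by 1 DESeq2 size factor per library. The strand setting of counting is not given in the sources used here.

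Counts were tested with edgeR 4.0.16 in R 4.3.3: filterByExpr (minimum count 10, minimum total 15), TMM, robust quasi-likelihood fits, two-sided tests, Benjamini-Hochberg adjustment over 14469 genes and a threshold of 0.05. Standard errors came from the fold change and the F statistic, and 95% intervals from the test's degrees of freedom. Single values were compared by exact permutation of the 6 libraries. Levels per kilobase used effective library sizes and the union of GENCODE M21 exons (GRCm38). GC content was that of the longest transcript of a gene in the same annotation. The scripts were tested on simulated data. At totals of 41833823 to 51417209 counts, Me1 had an SE of 0.23 on the log2 scale, against a median of 0.069 over the members. Pdk4 had too few counts to be tested.

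Alternatives were RLE size factors, library size alone, no filter, 2 other count filters (10 or more counts in at least 3 or in every library), DESeq2 1.42.0, limma 3.58.1 on log2(normalized count + 1), the replicate number as a block, loess offsets on GC content and length (span 0.5) alone or with that block, a fit without each library, and a threshold of 0.01. Leaving out together the 2 libraries that stood apart was chosen after seeing the data. The members, gene lists and tests were chosen with earlier results of these data known. Every member is named. Values in every library are given for phosphatases, kinases, Acod1 and members that did not overlap between genotypes, and of the other lists for genes past the threshold. Dld, Glud1, Lias, Acss1, Flt3, Zbtb46, Ccr7, Cd79b, Retnlg, S100a8, S100a9 and the sum without Csf3r were added after their values were seen. So were Ptprc, Itgam, Cd68, Lum, Cdh5 and Kdr.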

Additional observations from a re-analysis of the deposited data

How the results depend on the processing

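No member passed the threshold in 6 alternatives over all libraries. These were RLE size factors (782 of all genes called), library size alone (807), both other count filters (787 and 816), limma (756) and the replicate block (1027). None passed at a threshold of 0.01 either, where 283 genes did. Without an expression filter 4 members passed (3 higher, 1 lower, 1951 of all genes), in DESeq2 5 (4 higher, 1 lower, 1533), with GC and length offsets 10 (9 higher, 1 lower, 2741), also with the replicate block added (10, 2817), and without both libraries that stood apart 10 (7 higher, 3 lower, 3757). Leaving out 1 library gave 0 to 9 members (0 to 6 higher, 0 to 3 lower) and 222 to 3181 genes. The replicate numbers did not pair the libraries (correlations of same-numbered deviations -0.0132, -0.097 and 0.22), so the block was not used further. Of 578 fold changes of members under alternatives, 507 kept sign and side, 48 passed only there, and 23, of 8 members near 0, had the opposite sign. These were, with GC and length offsets without and with the block, Pdk1 (-0.0259, -0.0249), Ogdh (0.0268, 0.0269), Suclg2 (-0.0232, -0.0231), Mdh2 (0.0388, 0.0386) and Aco1 (0.0295, 0.0295), with library size alone Pdk1 (-0.0038), and without both libraries Pdpr (0.0226) and Pdk1 (-0.035). With 1 library left out, ranges were -0.0797 to 0.0103 for Pdpr, -0.013 to 0.0248 for Pdk1, -0.037 to 0.0685 for Pdk3, -0.0014 to 0.1691 for Mpc2, -0.0018 to 0.0523 for Suclg2 and -0.0616 to 0.0361 for Mdh2. The cause was not tested. Fits with 2 libraries in an arm estimate the spread from fewer libraries.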
